A study of Homo sapiens with 8 samples.

Results

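Reads that TALON, a program that assigns long reads to transcript models, placed over a gene but in none of its other classes are called Genomic. Those examined here are the Genomic models with 2 or more exons, chosen from the class name and exon number that the deposited tables give for each model. They were 3288 of 506946 models. Of these, 1759 had at least 1 read in the 8 libraries, out of 268821 models with reads, and together they held 3050 of 1910686 reads. Genomic models at 1 exon, just outside this choice, were 35721 with 209835 reads and a median length of 962 bases. The 1683 models at 2 exons, just inside it, held 2970 reads and had a median length of 774 bases. A further 66 models had 3 exons, 8 had 4 and 2 had 5.

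The libraries came from 3 established human cell lines: HepG2, from a liver cancer, with 3 libraries, K562, from a myelogenous leukaemia, with 2, and GM12878, B lymphoblasts immortalised by a virus, with 3. Total RNA was the starting material for direct RNA sequencing on nanopores, in which native RNA is read without copying to cDNA. The labels name no treatment, and they list K562 under the same cell type as GM12878. Totals were 70374 to 461497 reads per library. The 5 hepatocyte markers summed to 67407 to 75723 CPM (counts scaled to 1000000 reads of the library) in HepG2, to at most 22.7 in GM12878 and to 0 in K562. The 5 erythroid markers summed to 27542 to 34053 CPM in K562 and had 0 reads in HepG2 and GM12878. The 5 B cell markers summed to 8852 to 9391 CPM in GM12878 and 147 to 213 in HepG2, and 3 of them had 0 reads in K562. A set of 7 markers of other cell types (myeloid, T cell, endothelial and fibroblast) was also read. It summed to 1195 to 1453 CPM in HepG2, 0 to 12.8 in K562 and 213 to 295 in GM12878. Whether the libraries of a line are separate cultures is not stated, and the p-values below reflect only how far these libraries differ, which may be technical.

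Splicing joins exons at a donor and an acceptor site, and an annotation lists the sites already known for each gene. A spliced read inside a gene can miss that list because it keeps an intron, uses sites not yet annotated, or comes from a gene annotated without introns. The nanopore protocol starts from the poly(A) tail. Replication-dependent histone genes are a special case, since they lack introns and most of their mRNAs end in a stem-loop rather than a poly(A) tail, while some histone genes also make polyadenylated transcripts.

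The gene with the largest number of these reads was HIST1H2BK (ENSG00000197903.7), which encodes a form of histone H2B, a core protein of the nucleosome. GENCODE 29 places it on the minus strand of GRCh38 at chr6:27146418-27146798 as 1 exon of 381 bases, all of it coding. RefSeq on GRCh38.p14, where the gene is called H2BC12, gives it a span of 8566 bases. Its 13 relatives in the HIST1H2B group with a coding sequence of the same length matched it at 87.7% to 94.0% of bases. A read of 1 gene might therefore be placed on another, which was not tested. The last 120 coding bases are shown because they end where the annotated exon ends, for HIST1H2BK with the stop codon in capitals and for HIST1H2BJ and HIST1H2BO with the bases that differ from it in capitals, all on chromosome 6.
HIST1H2BK: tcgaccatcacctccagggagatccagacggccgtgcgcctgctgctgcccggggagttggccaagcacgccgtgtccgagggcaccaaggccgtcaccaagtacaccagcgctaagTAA
HIST1H2BJ: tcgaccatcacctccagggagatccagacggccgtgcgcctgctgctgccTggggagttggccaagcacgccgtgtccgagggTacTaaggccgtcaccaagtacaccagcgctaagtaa
HIST1H2BO: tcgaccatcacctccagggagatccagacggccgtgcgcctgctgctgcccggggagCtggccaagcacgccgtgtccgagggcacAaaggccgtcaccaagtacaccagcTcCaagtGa

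The 250 bases before the RefSeq start are shown for HIST1H2BK and for its near neighbour HIST1H2BJ (H2BC11 in RefSeq), because HIST1H2BK levels differed between lines. They lie at chr6:27146859-27147108 and chr6:27132796-27133045 on the minus strand of GRCh38.p14. Capitals mark the octamer ATTTGCAT, a motif known from H2B promoters, and the TATA motif TATAAA, each searched on both strands, where the octamer reads ATGCAAAT and copies of the TATA motif overlap at the start of the window.
HIST1H2BK upstream: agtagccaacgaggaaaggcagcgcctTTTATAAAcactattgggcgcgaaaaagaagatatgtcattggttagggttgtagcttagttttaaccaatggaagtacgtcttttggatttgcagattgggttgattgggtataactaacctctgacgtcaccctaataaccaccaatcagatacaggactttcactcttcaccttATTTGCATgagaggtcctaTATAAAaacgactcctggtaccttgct
HIST1H2BJ upstream: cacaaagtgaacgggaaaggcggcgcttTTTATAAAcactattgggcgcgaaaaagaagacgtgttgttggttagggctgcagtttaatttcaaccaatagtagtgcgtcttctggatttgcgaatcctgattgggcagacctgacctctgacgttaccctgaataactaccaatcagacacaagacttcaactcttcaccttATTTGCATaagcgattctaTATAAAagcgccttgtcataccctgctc
The octamer began 46 bases before the start in HIST1H2BK and 47 in HIST1H2BJ, with a TATA motif 27 and 28 bases before it. HIST1H2BO (H2BC17 in RefSeq), whose window is not shown, had no exact match to either motif that near its start. Its only octamer match lay 149 bases and its only TATA match 214 bases before the start, both on the other strand. HIST1H2BK and HIST1H2BJ also had TATA matches that far out, the overlapping copies at the start of their windows. Only exact matches were counted, so a different promoter layout in HIST1H2BO is not shown. Windows of the same length held the octamer in 14 of 18 H2B genes, and in 554 of 27305 genes in all, which is 2.03%. TATAAA was in 12 of the 18 and in 13.0% of all. A match describes these letters and does not show that a factor binds there.

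The share of reads on Genomic models with several exons was lowest in HepG2, and most of the gap lay in HIST1H2BK. They took 901, 1151 and 1184 CPM in HepG2 replicates 1, 2 and 3, then 2450 and 1850 in K562 and 2360, 2635 and 2643 in GM12878. The HepG2 libraries lay below all others, while K562 replicate 1 fell within the GM12878 range. As shares these were 0.108% ± 0.0155 in HepG2 (SD, n = 3), 0.215% ± 0.0424 in K562 (n = 2) and 0.255% ± 0.0161 in GM12878 (n = 3). An exact permutation test over all 560 assignments of libraries to lines gave p = 0.0107, one-sided for a larger spread between lines. Without K562 replicate 2 the exact p was 0.0571. By pairs, HepG2 minus GM12878 was -0.147 percentage points and K562 minus HepG2 0.107, each with an exact two-sided p of 0.10, the smallest that either pair can give. K562 minus GM12878 was -0.0395 points, with an exact two-sided p of 0.30.

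With HIST1H2BK left out, the lines overlapped. The other genes gave 875, 1131 and 1153 CPM in HepG2, 1008 and 1177 in K562 and 1028, 1204 and 1194 in GM12878, and the 3 ranges overlap. Their share was 0.105% in HepG2, 0.109% in K562 and 0.114% in GM12878, with an exact permutation p of 0.718 over 560 assignments. This alternative was chosen after the values had been seen. Over the 466 genes that reached 20 reads in each of the 8 libraries, which leaves out HIST1H2BK, the mean share of a gene's reads on Genomic models with several exons was 0.0530% in HepG2, 0.0469% in K562 and 0.0505% in GM12878, with an exact p of 0.675. It rested on 262 reads in 75 genes, and without GM12878 replicate 1 the exact p was 0.00952 with K562 lowest and GM12878 highest.

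**Figure D1:**
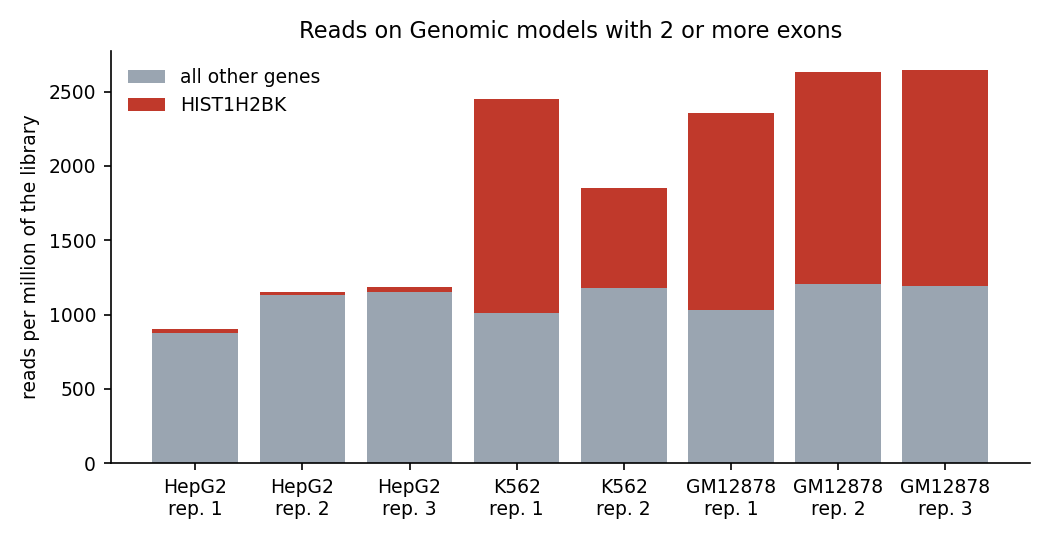
CPM (reads per 1000000) on Genomic models with 2 or more exons in each of the 8 libraries, split into HIST1H2BK (upper, red) and all other genes (lower, grey). The grey part is 875 to 1204 in every library, while the red part is 20.1 to 31.8 in HepG2 and 673 to 1449 in K562 and GM12878.

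HIST1H2BK held 32.8% of all reads in the class. It had 12, 5 and 11 such reads in HepG2, 206 and 211 in K562, and 202, 252 and 102 in GM12878. In CPM these are 26.0, 20.1 and 31.8 in HepG2, 1442 and 673 in K562, and 1331, 1431 and 1449 in GM12878. All HepG2 libraries lay far below the rest, and K562 replicate 2 lay below K562 replicate 1 and below every GM12878 library. The mean was 26.0 ± 5.83 in HepG2 (SD, n = 3), 1058 ± 544 in K562 (n = 2) and 1404 ± 63.5 in GM12878 (n = 3). In bulk RNA, fewer cells that make a transcript and less of it per cell cannot be told apart.

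Levels were tested with edgeR's quasi-likelihood test over 4989 features, each being the reads of 1 annotated gene on 1 class of model, with Benjamini-Hochberg adjustment over all of them. A feature was called at an adjusted p under 0.05 and an absolute log2 change of at least 1. HIST1H2BK was the only Genomic feature with several exons that passed the filter on low counts. It passed through K562 and GM12878, where it is high, so its changes against HepG2 describe a feature chosen for its pattern. HIST1H2BK fell by 5.29 on the log2 scale in HepG2 against GM12878 (standard error 0.30, edgeR adjusted p = 2.13e-21). In K562 against HepG2 it was higher by 4.82 (standard error 0.31, edgeR adjusted p = 5.12e-19). With no filter on low counts these changes were -5.02 and 4.79. K562 against GM12878 gave -0.47 (standard error 0.24, edgeR adjusted p = 0.154) and was not called. Of all features, 49.8% were called in HepG2 against GM12878, 25.1% in K562 against GM12878 and 44.3% in K562 against HepG2, so a call was common in this table.

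The make-up of HIST1H2BK by class overlapped between lines. Genomic models with several exons held 28 of its 33 reads in HepG2 (84.8%), 417 of 503 in K562 (82.9%) and 556 of 670 in GM12878 (83.0%). By library the share was 83.3% to 85.7% in HepG2, 80.2% and 85.8% in K562 and 81.3% to 86.4% in GM12878, and the ranges overlap. Exact 95% binomial intervals were widest in HepG2 replicate 2, with 5 of 6 reads and 35.9% to 99.6%. Usage of the class within a gene was tested with edgeR's diffSpliceDGE and called where the adjusted p was below 0.05 and the shift 10 percentage points or more. The shifts of HIST1H2BK were 1.86 points in HepG2 against GM12878 (adjusted p = 0.999), -0.08 in K562 against GM12878 (adjusted p = 1) and -1.95 in K562 against HepG2 (adjusted p = 1).

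Nearly all of these reads belonged to 1 model. It has 2 exons and 484 bases, longer than the annotated exon, and held 1000 of the 1001 HIST1H2BK reads of the class, with reads in all 8 libraries. Models of the gene with an unannotated splice site held 5 reads in HepG2, 71 in K562 and 110 in GM12878, of which 182 in all lay on 1 model of 2 exons and 480 bases. The annotated form of the gene, 1 exon of 381 bases, had 3 reads. The reads with an unannotated splice site changed by -5.28 on the log2 scale in HepG2 against GM12878 (edgeR adjusted p = 2.98e-14). In K562 against HepG2 they were higher by 4.55 (edgeR adjusted p = 7.62e-11). They passed the filter on low counts through K562 and GM12878. So these values describe the same gene a further time and support nothing beyond it. The tables give a model's gene, exon number and length but not its position, so the place of the second exon was not determined.

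**Figure D2:**
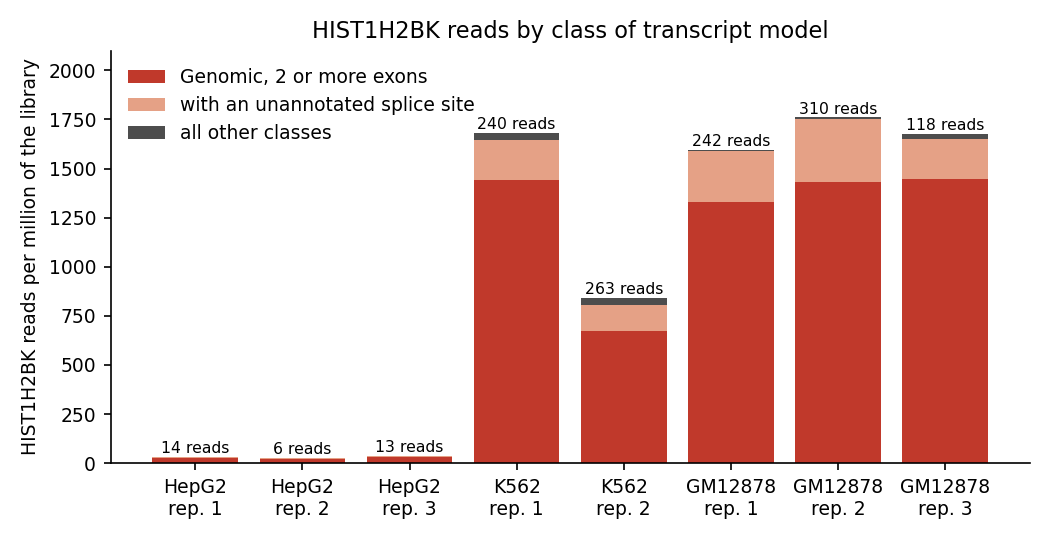
HIST1H2BK level in each library, in CPM, stacked by class of model, with the number of reads of the gene above each bar. Genomic models with 2 or more exons make up 80.2% to 86.4% of every bar, and the 3 HepG2 bars hold 14, 6 and 13 reads.

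Of 55 histone genes with any read, 7 had reads on Genomic models with several exons, against 7.46% of all annotated genes with reads. The 6 beside HIST1H2BK had 21 such reads of 6333 histone reads outside HIST1H2BK, and 15 of the 21 were of 1 gene. HIST1H2BO, another H2B gene of 1 annotated exon (chr6:27893463-27893843, plus strand, GRCh38), had 15 of its 19 reads there, all on a model of 2 exons and 703 bases. Those were 2, 0 and 1 reads in HepG2, 0 and 6 in K562, and 2, 4 and 0 in GM12878, and the lines overlap. HIST1H2BJ, which shares the arrangement of motifs shown above, had 104 reads and 0 on Genomic models with several exons. HIST1H1C, which encodes the linker histone H1.2, had all of its 1850 reads on its annotated form of 1 exon.

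Histone features of all classes were then set against the whole table. In HepG2 against GM12878, of 24 histone features that passed the filter, from 15 genes and with HIST1H2BK included, 15 were called lower and 1 higher, with a median of -1.53 on the log2 scale, against 981 lower and 1503 higher of 4989 features overall and a median of 0.09. The 1 called higher was H1F0, which encodes the linker histone H1.0, with 146, 56 and 58 reads in HepG2 and 0 in every K562 and GM12878 library, and both tested features of HIST1H2BK were among the 15 lower. HIST1H1C averaged 40.7 CPM in HepG2 and 2991 in GM12878, a change of -5.75 (edgeR adjusted p = 4.02e-25). Known models of HIST1H2BJ gave -4.25 (edgeR adjusted p = 3.37e-07). In K562 against GM12878, 4 histone features were called lower and 1 higher, against 642 lower and 608 higher of all features. In K562 against HepG2, 1 was lower and 8 higher, against 1408 lower and 800 higher of all features. In total, calls among histone features were no more frequent than over the whole table in either of these comparisons. The filter passes a feature through the line where it is high, so these counts describe the features that passed.

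The other reads were spread over many genes. In all, 1459 genes had at least 1 read, of which 1209 had exactly 1, 240 had 2 to 9 and 10 had 10 or more. The 10 leading genes held 40.1% of the reads and the 100 leading genes 50.5%. Annotated genes made up 1298 of the 1459, and all of them matched GENCODE 29. Another 87 genes were unannotated and antisense to a known gene, with 171 reads, and 74 were unannotated and intergenic, with 108. Reads outside annotated genes came to 101 to 132 CPM in HepG2, 161 and 198 in K562, and 119 to 227 in GM12878. HepG2 lay below K562, and GM12878 overlapped both. These reads include 1 gene described below, ENCODEHG000049122, at 0 to 8.67 CPM in HepG2 and 42.0 and 67.0 in K562. Without that gene, HepG2 and K562 overlap.

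Among the other leading genes, several are annotated with 1 exon or are processed pseudogenes. RPLP0P6 on chromosome 2 is a processed pseudogene, a copy of a spliced mRNA put back into the genome, of RPLP0, which encodes a protein of the large ribosomal subunit on chromosome 12. Its 954 bases match the coding sequence of RPLP0 at all but 11, or 98.8%. The first 120 bases of both are shown to make plain how close they are, with the bases of the pseudogene that differ in capitals.
RPLP0: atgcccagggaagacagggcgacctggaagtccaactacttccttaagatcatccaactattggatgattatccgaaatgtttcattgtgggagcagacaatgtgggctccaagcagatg
RPLP0P6: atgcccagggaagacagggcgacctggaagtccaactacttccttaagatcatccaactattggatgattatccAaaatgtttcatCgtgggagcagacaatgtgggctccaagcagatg
A single model of 2 exons and 769 bases held all 32 reads of RPLP0P6 in the class, seen in every library. Counts were 7, 6 and 3 in HepG2, 2 and 5 in K562, and 1, 7 and 1 in GM12878, and the lines overlap. These were 4.10% of the gene's reads in HepG2, 2.99% in K562 and 4.11% in GM12878, next to 802 reads on the annotated form. Reads of such near-identical copies can be split between them, so their counts are uncertain.

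Other pseudogenes, a mitochondrial gene and long noncoding RNAs followed. EEF1A1P5, a processed pseudogene on chromosome 9 that matches the coding sequence of the translation factor EEF1A1 at 99.7% of bases, had 10 reads on 9 models. Of its 3491 reads, 3468 lay on Genomic models of 1 exon. AP002414.4, a processed pseudogene on chromosome 18, had 12 of its 17 reads on 1 model of 2 exons. MT-CO1, the mitochondrial gene for subunit 1 of cytochrome c oxidase, had 19 reads on 7 models, with 14 in HepG2, 3 in K562 and 2 in GM12878. In CPM by library these were 10.8, 24.1 and 8.67 in HepG2, 0 and 9.57 in K562, and 6.59, 0 and 14.2 in GM12878. The lines overlap. The lincRNA genes FP236383.1 and FP671120.1, both on chromosome 21, had 21 and 11 reads on 18 and 11 models. Nearly all their reads, 637 of 661 and 1438 of 1463, lay on Genomic models of 1 exon. Both are annotated with up to 7 exons and a longest transcript of 2498 bases. Whether they are near-identical copies that share reads was not tested, so their counts are uncertain too. Intron-free coding genes were INAFM1 with 9 reads, and CEBPB, which encodes the transcription factor C/EBP beta, with 9 reads of which 8 were in K562 replicate 2.

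The unannotated gene ENCODEHG000049122, antisense to a known gene, was next to HIST1H2BK in level. Its reads in the class were 2, 0 and 3 in HepG2, 6 and 21 in K562, and 6, 6 and 4 in GM12878, or 4.33, 0 and 8.67 CPM in HepG2, 42.0 and 67.0 in K562, and 39.5, 34.1 and 56.8 in GM12878. All HepG2 libraries lay below all others. With unannotated genes added to the fit, a choice made after the values had been seen, it gave -2.59 on the log2 scale in HepG2 against GM12878 (edgeR adjusted p = 0.00237), 3.08 in K562 against HepG2 (edgeR adjusted p = 0.00015) and 0.50 in K562 against GM12878 (edgeR adjusted p = 0.593). It passed the filter on low counts through K562 and GM12878, where it is high, so the first and second of these values describe a gene chosen for its pattern and support nothing further. A count of 0 allows up to 3 reads, which is 12.1 CPM in HepG2 replicate 2. This limit and the intervals above cover counting error only.

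**Figure D3:**
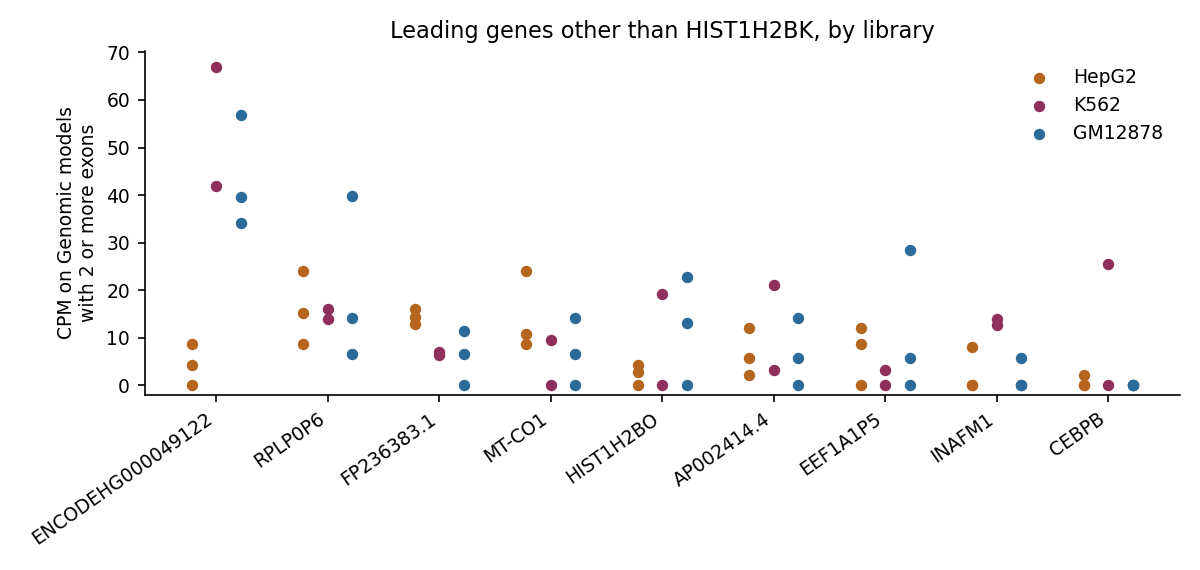
CPM on Genomic models with 2 or more exons for 9 leading genes other than HIST1H2BK, 1 point per library, coloured by line. ENCODEHG000049122 is at 0 to 8.67 in HepG2 and 34.1 to 67.0 in the other lines; for most of the rest the points of the lines overlap.

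In usage, 7 Genomic features with several exons could be tested in each comparison, among them those of HIST1H2BK, RPLP0P6, EEF1A1P5, MT-CO1, FP236383.1 and FP671120.1. None was called in any of the 3 comparisons, and none had an unadjusted p under 0.05. Their shifts were at most 1.95 percentage points in size. Over all features, 0.231% were called in HepG2 against GM12878, 0.0542% in K562 against GM12878 and 0.0161% in K562 against HepG2, so few calls were made in any class.

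Genes that host these reads were more often annotated without introns than the hosts of other reads. With HIST1H2BK left out, 12.5% ± 0.57 of the class reads in annotated genes were in genes of 1 annotated exon in HepG2 (SD, n = 3), 16.5% ± 5.74 in K562 (n = 2) and 16.5% ± 3.52 in GM12878 (n = 3). The same share was 3.35% in HepG2, 3.66% in K562 and 5.10% in GM12878 for all other classes together, and the class was the higher in 8 of 8 libraries. Genomic models of 1 exon lay between, with 8.50% in HepG2, 6.50% in K562 and 8.15% in GM12878. With HIST1H2BK the pooled share was 45.7%, against 3.74% for other classes. Class names depend on the annotated splice sites of a gene, and a gene of 1 exon has none, so this share is given as a description without a test. Counted once each, 124 of 1298 host genes had 1 annotated exon, or 9.55%, against 7.26% of all 17404 annotated genes with reads.

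Pseudogenes were 8.97% ± 1.99 of the class reads in HepG2, 12.3% ± 3.35 in K562 and 13.8% ± 3.97 in GM12878, again without HIST1H2BK. Other classes had 2.21%, 3.35% and 3.81% of their reads there in HepG2, K562 and GM12878. The class was higher in 8 of 8 libraries, by 4.64 percentage points or more and 8.52 on average. Of these class reads, 139 were in pseudogenes of 1 annotated exon and 59 in spliced ones. The share therefore overlaps with that of genes of 1 exon, and it too is a description without a test. Genomic models of 1 exon had 2.83% in HepG2, 3.91% in K562 and 4.25% in GM12878. Counted once each, 97 of the 1298 host genes, or 7.47%, were pseudogenes, against 5.81% of all annotated genes with reads, a smaller gap than in reads. Near-identical parent genes make the placing of such reads uncertain.

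Models of this kind are candidates for retained introns, and genes known for intron retention were compared. Genes with a transcript that GENCODE 29 types as retained_intron held 39.9% ± 0.061 of the class reads in annotated genes in HepG2, 41.7% ± 1.77 in K562 and 39.6% ± 3.54 in GM12878, without HIST1H2BK. Reads of all other classes fell in such genes at 67.1%, 66.8% and 66.5% in HepG2, K562 and GM12878. The class was lower in 8 of 8 libraries, with differences of -31.1 to -24.6 points. Genomic models of 1 exon had 47.3%, 50.8% and 50.5% in the same lines. Counted once each, 607 of the 1298 host genes, or 46.8%, had such a transcript, against 45.4% of all annotated genes with reads. So the gap in reads was not seen when genes were counted once.

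Known retained_intron transcripts were far more common than the whole class. They took 29625 to 34255 CPM in HepG2, 31967 and 32320 in K562, and 30319 to 31899 in GM12878, on 3453 models in 2596 genes. Ribosomal protein genes led them, with RPL37A-201 at 5840 reads. Of the 2596 genes, 234 also had reads of Genomic models with several exons, which is 9.01% of the genes with known retained_intron reads and 18.03% of the 1298 host genes. Among all annotated genes with reads, 14.9% had known retained_intron reads.

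**Figure D4:**
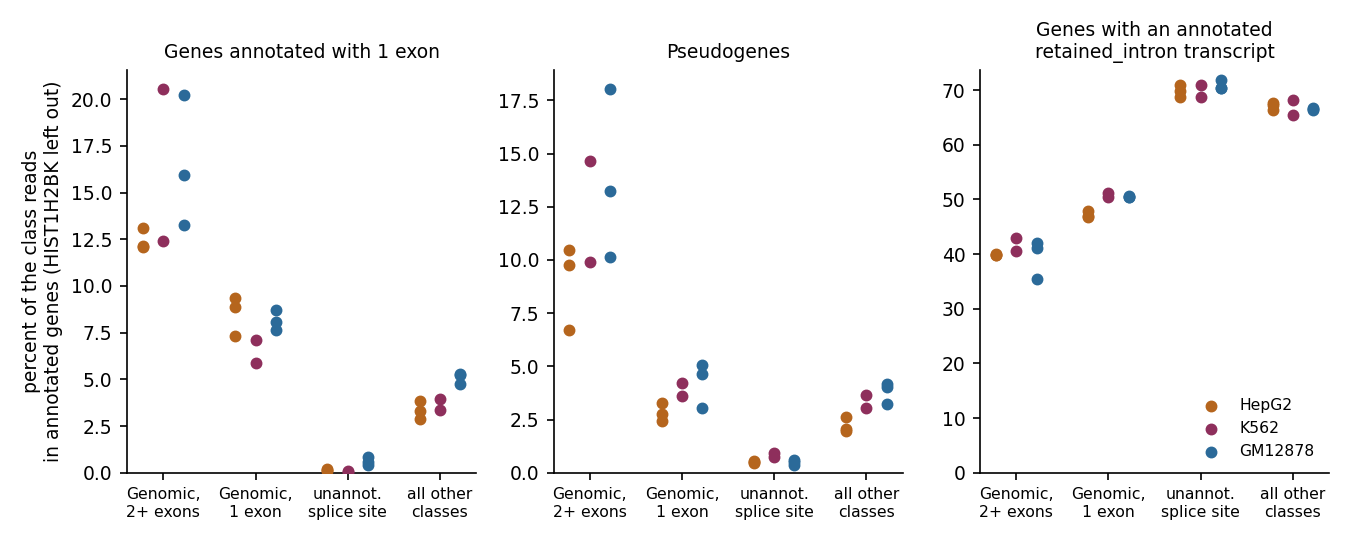
Percent of each class's reads in annotated genes that fall in genes of 1 annotated exon (left), pseudogenes (middle) and genes with an annotated retained_intron transcript (right), with HIST1H2BK left out and 1 point per library; the last group holds every class other than Genomic models with 2 or more exons. Points of that class lie above the last group in the first 2 panels and below it in the right panel, in 8 of 8 libraries.

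The models were short and mostly seen once. Their median length was 782 bases, with a range of 21 to 6018, against 962 for Genomic models of 1 exon, 1408 for models with an unannotated splice site and 1522 for known models. Length hardly varied with the size of the host gene: without HIST1H2BK the median was 771 bases in genes of 1 annotated exon, 803 in genes of 2 to 5, 778 in genes of 6 to 15 and 743 in genes of more than 15. Over the same last 3 groups, models with an unannotated splice site had medians of 832, 1337 and 2207 bases. Genomic models of 1 exon also varied little, though somewhat more than the class itself, with medians that fell from 1029 over 981 and 955 to 931 bases over the 4 groups. Of 1547 models in annotated genes, 123 were longer than the longest annotated transcript of their gene.

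**Figure D5:**
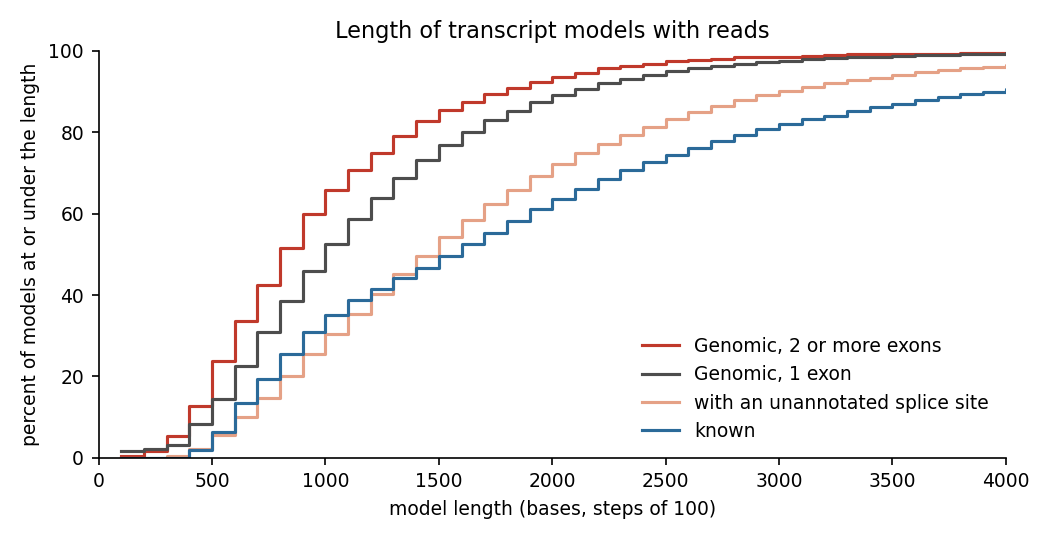
Cumulative percent of models with reads at or under each length, in steps of 100 bases, for Genomic models with 2 or more exons, Genomic models of 1 exon, models with an unannotated splice site and known models. The curve for Genomic models with 2 or more exons lies left of the others over most of the range, with medians of 782, 962, 1408 and 1522 bases in that order.

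Few models recurred. Of the 1759, 1675 had 1 read, or 95.2%, against 48.9% of Genomic models of 1 exon, 85.3% of models with an unannotated splice site and 33.1% of known models. Reads were seen in 2 or more libraries for 68 models, in 2 or more lines for 38, in all 3 lines for 11 and in all 8 libraries for 3. At an equal depth of 70374 reads, the number of models expected with a read was 60.9, 77.5 and 80.5 in HepG2, 68.6 and 77.8 in K562, and 70.0, 80.8 and 81.0 in GM12878. These ranges overlap. None of the 76 models with 3 or more exons had reads in all 3 lines, and 72 of them had 1 read.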

How the data were processed

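The deposited values are counts of direct RNA reads per transcript model, made with TALON per the labels and not normalized. Per the submitters' processing notes, reads were aligned with minimap2 to hg38; versions are not given in the sources used here. Models were joined over the 3 tables by identifier. CPM is a count over the library total of all models, scaled to 1000000. Counts were summed by annotated gene and class, passed through filterByExpr and TMM scaling, and fitted by edgeR 4.0.16 in R 4.3.3 (glmQLFit, robust, glmQLFTest) in 1 fit over 8 libraries; standard errors are the log2 change over the root of the F statistic. Usage was tested with diffSpliceDGE in genes and features with at least 10 reads. DESeq2 1.42.0 was an alternative. Single values were compared by exact permutation over libraries, and intervals are exact binomial at 95%. Both edgeR tests were tested on simulated data. Annotation came from GENCODE 29, promoters from RefSeq on GRCh38.p14.

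The named genes are the 12 highest in mean level over lines, the 6 highest in each line, the hosts of the 10 models with most reads, the called genes, and 2 members of each gene list; some are given only as counts, and 1 leading gene, with the length comparison within genes that rests on it, is not reported here. Members, lists and the naming rule were chosen with earlier results of these data known. H1F0, HIST1H1C, HIST1H2BJ and the genes that led the known retained_intron reads were named after their values were seen. Libraries of the same line differed by more than counting noise, with a chi-square of 1.24 to 3.52 for each degree of freedom, highest for the K562 pair, and none was counted as a repeat. The alternatives covered the models counted, the total used as denominator, the read minimum, the normalisation, the filter, the samples in the fit, a replicate block and leaving out each library.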

Additional observations from a re-analysis of the deposited data

How the results depend on the processing

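HIST1H2BK kept its direction and its side of the threshold under every alternative, from -5.38 to -5.02 in HepG2 against GM12878, 4.45 to 5.17 in K562 against HepG2 and -0.79 to -0.04 in K562 against GM12878, in log2; the last had an edgeR adjusted p of 0.0405 at -0.79 without K562 replicate 1, below the size needed for a call. The number of Genomic features with several exons called on level was 1, 0 and 1 in HepG2 against GM12878, K562 against GM12878 and K562 against HepG2 under each alternative on annotated genes, and on usage 0 under each. With unannotated genes included, chosen after seeing the data, 2 were called in HepG2 against GM12878 and 2 in K562 against HepG2. With a replicate block, the level calls were 1, 0 and 1 and the usage calls 0. Same-numbered libraries of different lines correlated at -0.061 to 0.047 in their deviations, so no pairing by number was seen. A shared run or batch is not excluded by this, and with 2 K562 libraries their deviations mirror each other. The range of the class share between lines, 0.147 points, was 0.138 to 0.156 with a library left out (p 0.00952 to 0.0571). It was 0.00485 (exact p = 0.143) over models with 3 or more exons, on 80 reads, and 0.00908 (exact p = 0.718) without HIST1H2BK. Over genes read in every library it was 0.00611 points, 0.00455 to 0.0116 with a library left out, 0.0126 (exact p = 0.0393) over models with 2 or more reads, on 114 reads in 9 genes, 0.0203 (exact p = 0.125) at 50 reads in every library, where GM12878 and not HepG2 was highest, 0.00537 (exact p = 0.743) at 10 reads, and 0 over models with 3 or more exons. With 3050 reads in all, 1 member feature had depth for a level test, through its reads in K562 and GM12878.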

Other observations

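Of the 17404 annotated genes with reads, 7.46% had reads on Genomic models with several exons, at 935 in 1000000 reads of annotated genes without HIST1H2BK. Ribosomal protein genes, among the most abundant mRNAs, had 10 such reads in 7 of 84 genes, or 26.0 in 1000000 of their 384787 reads, the scale used below. Translation factors had 1 read, on EEF1A1, at 19.2, small nucleolar RNA host genes 1 read, on SNHG12, at 37.7, and glycolysis enzymes 2 reads, on PKM and PGAM1, at 71.9. Globin genes had 0 of 15590 reads, where a count of 0 allows up to 3. Cytoskeletal genes were at 189, chaperones at 275 and MHC class I and II genes at 292. Other lists lay nearer the overall level: hnRNP proteins and RNA helicases at 598 with reads in 6 of 26 genes, SR proteins and their kinases, which regulate splicing, at 772 with SRSF5 and SRSF10 at 1 read each, immunoglobulin constant regions and J chain at 987 with 2 reads, and nuclear long noncoding RNAs at 1515 with 1 read, on DANCR. The mitochondrially encoded mRNAs were at 2433, with 24 reads in 5 of 11 genes, of which MT-CO1 had 19. Histone genes without HIST1H2BK were at 3316, the highest of the lists, with 15 of those 21 reads on HIST1H2BO. These lists are described by counts alone.

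Hepatocyte secreted proteins had 11 such reads in 7 of 28 genes, all 11 in HepG2, with 4 on APOB, the main protein of low-density lipoprotein, and 2 on APOA1, that of high-density lipoprotein. Those genes are read almost only in HepG2, and at 78.4 in 1000000 of their 140256 reads the level was below the overall 935. Among protein-coding genes annotated with 1 exon, RefSeq gave a span at least 1000 bases longer than GENCODE 29 for 2 of 27 matched genes with reads on Genomic models with several exons, HIST1H2BK and HIST1H2BG, and for 10 of 182 matched genes without.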
